A study of Mus musculus
Mus spretus with 18 samples.

Results

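Introns of 200 bp or less were followed in fibroblasts treated with pladienolide B. Members were taken from the table of retained intron (RI) events as autosomal introns of at most 200 bp with 20 or more junction reads in all 4 fibroblast libraries. This gave 785 introns in 593 genes, out of 1802 autosomal events with enough reads and 2243 events in the whole table. Of 921 autosomal events of that length, 136 had too few reads, and 28 further short events lay on the sex chromosomes and were not used. The rule used length and read number only, not the change in retention. The remaining 1017 autosomal introns over 200 bp served as the comparison.

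The fibroblasts were a cell line from F1 hybrid mice of a C57BL/6J mother and a SPRET/EiJ father, 2 mouse species that differ at many sites. Treated cells received 0.1 μM pladienolide B for 4 h, and control cells received DMSO, the solvent, for the same 4 h, with 2 libraries each of strand-specific mRNA. All 4 libraries come from 1 line, and nothing states that they were separate cultures, so p-values measure the spread between these libraries, which may be technical. Reads of both alleles were counted together. Tissues and embryonic stem cells of the same series were not used.

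Splicing removes introns after the spliceosome has recognised the splice sites and the branch point. The U2 snRNP binds the branch point with the help of its SF3B complex, and pladienolide B is a macrocyclic lactone that binds SF3B and blocks this step. An intron that is not removed stays in the RNA as a retained intron. Very short introns are usually recognised across the intron itself, as a pair of neighbouring splice sites. Transcripts with retained introns are often held in the nucleus or degraded when the intron brings in a stop codon.

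Retention is given as percent spliced in (PSI), on a scale from 0 (intron always removed) to 1 (always retained). PSI was computed in each library from the reads that cross an exon-intron border and the reads that join the exons, each divided by the effective length of its form. Introns were called changed at an adjusted p under 0.05 in a quasi-binomial test and a mean PSI difference of at least 0.1. The median intron had 631 and 640 reads after DMSO and 267 and 337 after pladienolide B, so treated values rest on fewer reads. Junction reads of each library, summed over the skipped exon events, ranged from 129067054 to 151755602. PSI agreed closely between libraries of a group, with a median difference of 0.00915 for DMSO and 0.0219 for pladienolide B, and 22 and 84 introns differed by more than 0.1. All 14 fibroblast markers had at least 1 TPM, the unit of the deposited gene levels, after DMSO, with a summed level of 14500 to 14900 after DMSO and 17700 to 18600 after pladienolide B. Of the other markers found, 1 of 5 epithelial (Cdh1), 0 of 3 endothelial, 1 of 3 leukocyte (Cd68) and 0 of 3 pluripotency markers had a mean of 1 TPM or more after DMSO. Their summed levels were 7.59 to 8.84, 0.0136 to 0.0702, 6.91 to 8.86 and 0.0772 to 0.925 TPM, and 1 leukocyte marker was at 0 in every library.

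The introns were mostly close to the shortest length that mammalian splicing handles. Length ran from 11 to 200 bp, with quartiles at 82 and 139 bp. In DMSO-treated cells the median PSI over the 785 introns was 0.0679 and 0.0648, so the typical short intron was nearly always removed. After pladienolide B it was 0.216 and 0.252. The difference between group means was 0.168 (0.0663 ± 0.00215 after DMSO, 0.234 ± 0.0252 after pladienolide B, SD, n = 2). Both treated libraries lay above both controls, but an exact two-sided permutation test of 2 against 2 libraries cannot go below p = 0.333, which is what it gave. Introns over 200 bp had medians of 0.0868 and 0.0780 after DMSO and 0.290 and 0.310 after pladienolide B.

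Pladienolide B raised retention of 297 short introns (37.8%) in 236 genes and lowered it for 17 (2.17%) in 17 genes, and 471 were not called. The 17 were 9 in limma on the log2 ratio of the forms and 7 at a PSI limit of 0.2. Room for a call was unequal, since the 336 introns with a DMSO PSI up to 0.05 and the 128 from 0.05 to 0.1 cannot fall by 0.1. Over all 1802 introns tested, 38.0% were called, 35.1% higher and 2.89% lower, so the share among short introns was near the background. Both treated libraries lay above both controls for 511 short introns and below for 106, against 59.9% and 16.2% of all introns tested. The adjusted p alone passed for 447 short introns, against 55.6% of all tested, and 133 of these differed by less than 0.1, 109 of them upward. The median change in PSI was 0.0466, against 0.0371 over all introns and 0.0303 for longer ones. The number of introns with PSI above 0.5 went from 154 and 147 after DMSO to 268 and 277 after pladienolide B.

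**Figure D1:**
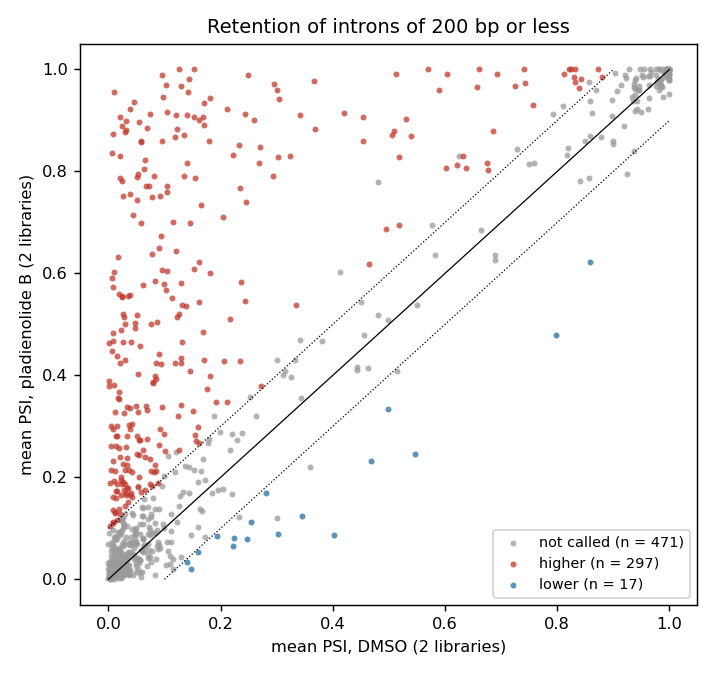
Mean PSI of each of the 785 short introns after DMSO (x axis) and after pladienolide B (y axis), 2 libraries each, on a scale from 0 to 1. The solid line marks no change and the dotted lines a difference of 0.1. The 297 introns called higher (red) spread over the whole height above the line, and the 17 called lower (blue) all start at a DMSO PSI of at least 0.1.

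For a minority of the introns the change was close to a switch. Among the 297 introns called higher the median PSI went from 0.0817 to 0.539, with quartiles of the difference at 0.186, 0.339 and 0.577. Retention rose by 0.2 or more in 209, by 0.5 or more in 97 and by 0.8 or more in 25. In 58 of the 785 introns PSI went from under 0.1 to over 0.5. These counts were not made for longer introns, so they do not set short introns apart. Falls were smaller, from −0.106 to −0.318 with a median of −0.165, and the median PSI of these 17 introns went from 0.281 to 0.0894. Their median length was 139 bp, against 98 bp for introns called higher.

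The largest rise was in Syvn1, a ubiquitin ligase of the endoplasmic reticulum that marks misfolded proteins for degradation. Its 87 bp intron (chr19:6048608-6048694, mm10, plus strand) had a PSI of 0.00663 and 0.0142 after DMSO and of 0.967 and 0.942 after pladienolide B. The groups were far apart, with a difference of 0.944 ± 0.0105 (SE, adjusted p = 5.34e-11). In counts, 760 and 749 reads joined the exons after DMSO and 17 and 48 after treatment, while reads over the intron borders went from 8 and 17 to 789 and 1233. The TPM of Syvn1 was 38.0 and 35.1 after DMSO and 44.2 and 50.7 after pladienolide B, higher in both treated libraries.

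Ppan, a factor of ribosome assembly, followed with an intron of 194 bp (chr9:20889440-20889633, plus strand) that overlaps a snoRNA gene in RefSeq. Its PSI was 0.103 and 0.0876 after DMSO and 0.988 and 0.991 after pladienolide B. Only reads that cross an intron border or join the exons were counted, and the part of the snoRNA gene in them was not tested. The next was Tnfaip2, a gene induced by tumour necrosis factor (169 bp, chr12:111448370-111448538), with 0.0611 and 0.0310 against 0.945 and 0.927. Sapcd2 (88 bp, chr2:25376076-25376163) went from 0.0176 and 0.0232 to 0.874 and 0.939, but only 24 and 51 reads stood behind the treated values.

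Cdk9, the kinase of P-TEFb that releases paused RNA polymerase II into elongation, had a 157 bp intron (chr2:32709616-32709772, minus strand) with PSI of 0.0306 and 0.0456 after DMSO. After pladienolide B it was 0.913 and 0.931, a difference of 0.884 ± 0.0156 (SE, adjusted p = 1.27e-10). Cdk9 TPM was 24.4 and 24.8 after DMSO and 21.6 and 26.0 after treatment, with overlapping groups. Gba2, a glucosylceramidase outside the lysosome (155 bp, chr4:43570191-43570345), had 116 and 131 exon-joining reads after DMSO and none in either treated library. Its PSI thereby went from 0.150 and 0.103 to 1.00 and 1.00, from 38 and 32 reads in the treated libraries. Traf4, an adaptor of TNF receptor family signalling, had an intron of 69 bp (chr11:78161449-78161517), with 0.125 and 0.0793 against 0.969 and 0.968.

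The remaining 8 of the 15 largest rises lay between 0.839 and 0.866. The intron of Slc35d1, a nucleotide sugar transporter (chr4:103213958-103214058), went from 0.0115 and 0.00462 to 0.933 and 0.815. C230052I12Rik (109 bp, chr7:35395128-35395236) went from 0.0263 and 0.0377 to 0.915 and 0.882. Osgin1, a gene of the oxidative stress response (84 bp, chr8:119443108-119443191), went from 0.0210 and 0.0271 to 0.868 and 0.910. In each of these 3 both treated libraries were more than 0.8 above both controls.

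Uck1 makes uridine and cytidine monophosphate, and its intron (chr2:32258420-32258570) went from 0.0280 and 0.0331 to 0.886 and 0.878. Rnf167, a ubiquitin ligase of endosomes and lysosomes (146 bp, chr11:70649766-70649911), went from 0.0947 and 0.0984 to 0.922 and 0.970. A pair of Polycomb repressive complex 1 genes was among the 15. Cbx8 (95 bp, chr11:119039999-119040093) went from 0.0452 and 0.0137 to 0.851 and 0.904, and Pcgf1 (79 bp, chr6:83080631-83080709) from 0.0590 and 0.0886 to 0.901 and 0.925. Gmppb, which makes GDP-mannose for glycosylation (83 bp, chr9:108050977-108051059), went from 0.0451 and 0.0650 to 0.893 and 0.90.

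**Figure D2:**
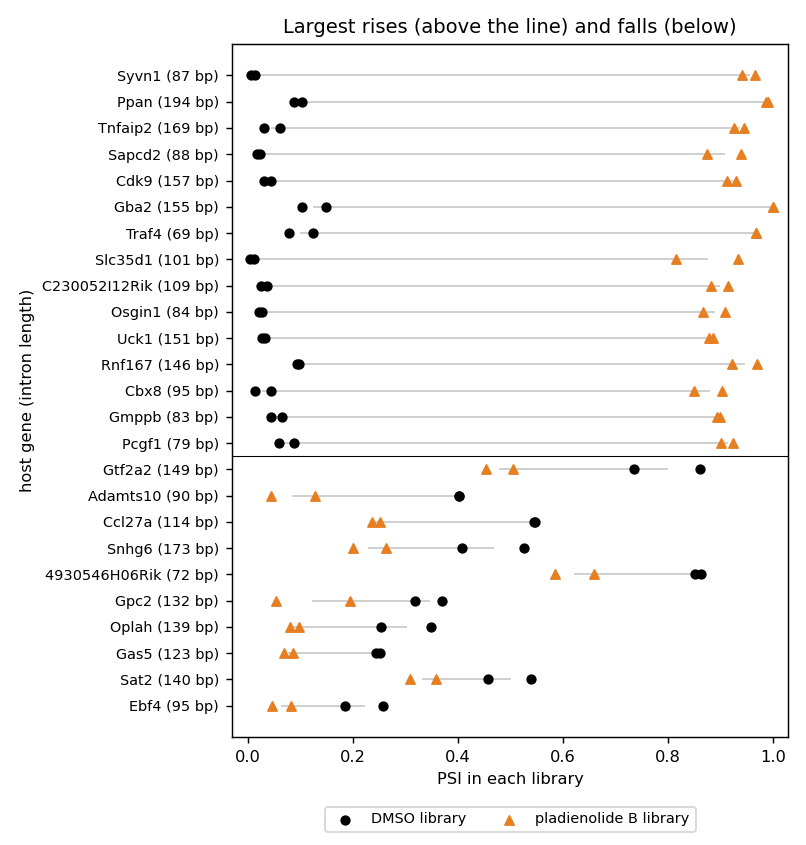
PSI in each of the 4 libraries (x axis, 0 to 1) for the 15 introns with the largest rise and, below the line, the 10 with the largest fall, with the host gene and intron length on the y axis. In all 25 introns the circles (DMSO) and triangles (pladienolide B) do not overlap, since the naming rule asked for this. The rises start near 0 and end near 1, while the falls start anywhere between 0.186 and 0.863.

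The largest fall was in Gtf2a2, a subunit of the general transcription factor TFIIA. Its 149 bp intron (chr9:70016924-70017072) was retained in most transcripts after DMSO, with PSI of 0.735 and 0.861, and in fewer after pladienolide B, with 0.455 and 0.505 (difference −0.318 ± 0.0736 SE, adjusted p = 0.00346). Border reads went from 138 and 185 to 40 and 63, while exon-joining reads were 25 and 15 after DMSO and 24 and 31 after treatment. Adamts10, a secreted protease of the matrix (90 bp, chr17:33538174-33538263), had 0.402 and 0.403 against 0.129 and 0.0456. Ccl27a, a chemokine (114 bp, chr4:41773351-41773464), had 0.546 and 0.548 against 0.237 and 0.253, from 34 to 59 reads in each library.

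Of the 17 introns called lower, 5 overlap a second gene in RefSeq, against 44 of the 777 short introns whose host gene matched it. They lie in Snhg6 (overlapping Mcmdc2), 4930546H06Rik (Has1), Gpc2 (Stag3), Oplah (Smpd5) and Fanci (Polg). For these, border reads of the neighbour may be counted with those of the intron, and the part of the neighbour in the fall was not tested. The intron of Oplah, 5-oxoprolinase (139 bp, chr15:76296782-76296920), went from 0.35 and 0.254 to 0.0812 and 0.0976, and that of Gpc2, a glypican (132 bp, chr5:138276076-138276207), from 0.319 and 0.371 to 0.0546 and 0.196. The intron of 4930546H06Rik (72 bp, chr17:17838244-17838315) had 0.852 and 0.863 against 0.659 and 0.586, from as few as 27 reads. Of the 44 overlapping introns 18 were called higher (40.9%, near the 37.8% of all short introns), and the same limit holds for them. Without introns that overlap a second gene, 279 were called higher and 12 lower.

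Introns of long noncoding RNA genes, as RefSeq lists them, were few. Of 7 such introns none was called higher in the quasi-binomial test (0 also at an unadjusted p under 0.05 and in limma). The share called higher over all introns tested was 35.1%. Lower retention was called in 2, against 2.89% of all introns tested. In 6 both treated libraries lay below both controls, against a background of 16.2%. Of the 7, 5 are introns of Gas5, a spliced noncoding RNA that hosts snoRNAs in its introns, so these counts rest largely on 1 gene. Its 123 bp intron (chr1:161037165-161037287, plus strand) fell from 0.252 and 0.244 to 0.0698 and 0.0867, with 2031 to 2614 reads in each library (difference −0.170 ± 0.0129 SE, adjusted p = 2.13e-07). Border reads went from 809 and 865 to 244 and 385, and exon-joining reads from 1323 and 1472 to 1787 and 2229. The other 4 Gas5 introns, of 178 to 193 bp, differed by −0.00786 to −0.0787. The adjusted p passed for 3 of these 4, and the largest fall among them was from 0.109 and 0.109 to 0.0239 and 0.0360 at 193 bp. Snhg6, another snoRNA host (173 bp, chr1:9942150-9942322), fell from 0.527 and 0.408 to 0.20 and 0.263. Sat2, a polyamine acetyltransferase homologue (140 bp, chr11:69622116-69622255), went from 0.458 and 0.540 to 0.309 and 0.359, and Ebf4, a transcription factor (95 bp, chr2:130361895-130361989), from 0.258 and 0.186 to 0.0833 and 0.0468.

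Some calls of lower retention depended on the setting or on 1 library. Ebf4 and 4930546H06Rik lost their call with a prior without depth trend (adjusted p = 0.0726 and 0.0641 in the quasi-binomial test). Without the first listed DMSO library the adjusted p was 0.0508 for Ccl27a, 0.0589 for Snhg6, 0.123 for 4930546H06Rik and 0.191 for Ebf4. Without the second listed DMSO library it was 0.0726 for 4930546H06Rik and 0.109 for Sat2. Without the first listed pladienolide B library it was 0.0551 for 4930546H06Rik and 0.0760 for Ebf4, and without the second 0.215 and 0.0725. The falls of Gtf2a2, Adamts10, Gpc2, Oplah and Gas5 kept their call with each library left out. In limma on the log2 ratio of the forms the adjusted p was 0.0561 for Ccl27a, 0.0828 for Snhg6, 0.0517 for 4930546H06Rik, 0.0863 for Gpc2, 0.123 for Sat2 and 0.0659 for Ebf4. With reads thinned to 20 per library it was 0.0911 for Gtf2a2, 0.169 for Snhg6, 0.436 for 4930546H06Rik, 0.106 for Oplah and 0.110 for Sat2 in the quasi-binomial test, and Gas5, Sat2 and Ebf4 lay under a PSI limit of 0.2.

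Next, the reads of both forms were looked at apart, in RPM (reads scaled to a common total of junction reads per library), a scale chosen after the data were seen. Among the 297 introns called higher, the spliced form fell in 292. Its median went from 2.82 and 2.74 RPM to 0.364 and 0.388, a median log2 ratio of −2.67 over the 266 introns with 10 or more such reads in each group. Border reads went up in 221, from a median of 0.450 and 0.428 to 0.876 and 1.08 RPM, a median log2 ratio of 1.02 over 291 introns. In 76 introns both forms went down, and in these PSI was higher because spliced reads went down more. Among the 17 called lower, border reads went down in all 17 (median log2 ratio −1.73) while the spliced form was higher in 10 and lower in 7 (median 0.14). Among the 471 not called, the medians were −0.23 for border reads and −0.56 for spliced reads.

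**Figure D3:**
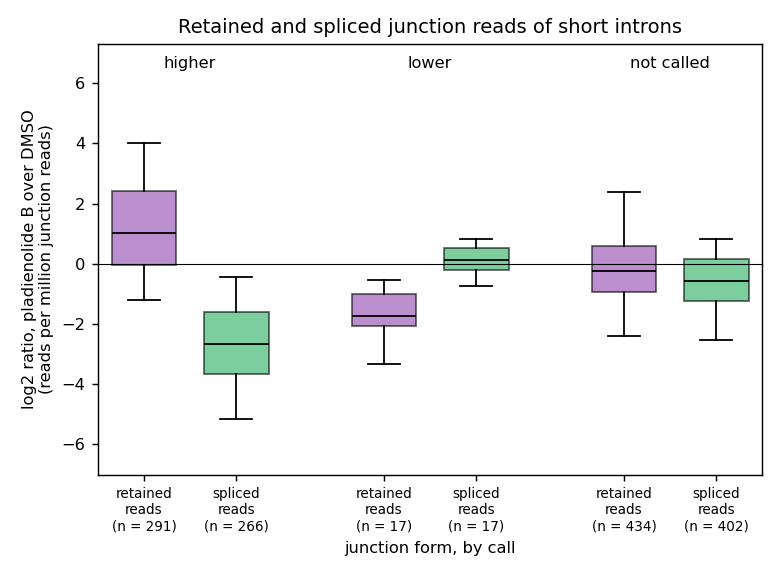
Log2 ratio of pladienolide B over DMSO (y axis) for border (retained) reads and exon-joining (spliced) reads in RPM, by call, for introns with 10 or more reads of that form in each group. Boxes give the quartiles and median, and whiskers the 5th and 95th percentiles. The spliced form has a median of −2.67 in introns called higher, and the retained form a median of −1.73 in introns called lower.

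Length within the range of 11 to 200 bp made little difference to the change. Spearman's rho between length and PSI difference was −0.0141 across the 785 introns, which share libraries and in part genes. The share called higher was 26.1% of 23 introns of 51 to 70 bp, 39.5% of 147 of 71 to 80 bp, 43.3% of 215 of 81 to 100 bp, 33.2% of 247 over 100 and up to 150 bp and 39.2% of 148 over 150 bp. It was 42.4% of 224 introns over 200 and up to 300 bp and 28.5% of 298 over 1000 bp. The starting level limits what can be called, since an intron with a PSI above 0.9 after DMSO cannot rise by 0.1. There were 85 such short introns, 24 of them overlapping another member that uses a different splice site. Among introns with a DMSO PSI of 0.9 or less, 42.4% of 700 short and 41.0% of 820 longer ones were called higher.

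**Figure D4:**
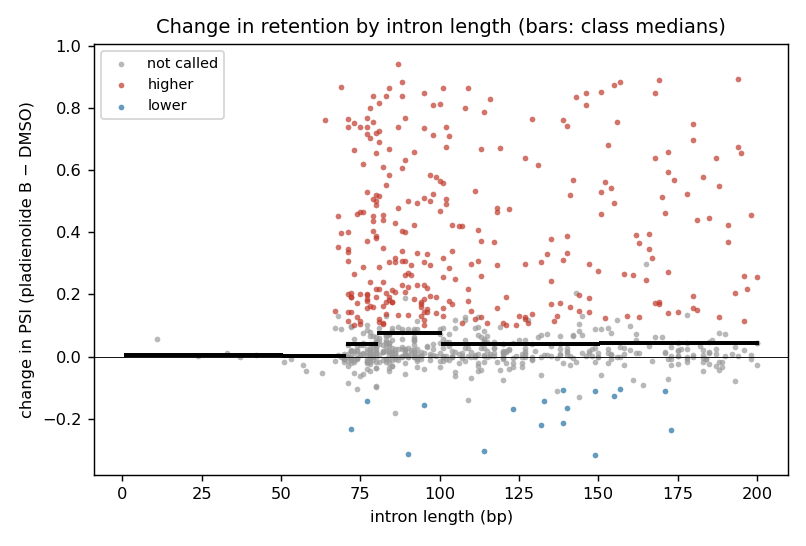
Change in PSI (y axis, pladienolide B minus DMSO) against intron length in bp (x axis) for the 785 short introns, coloured by call. Black bars mark the class medians, which lie between 0.0027 and 0.0769, and introns called higher run from 64 bp to 200 bp.

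The 5 shortest entries are shorter than nearly all introns known in mammals, and none was called or had an unadjusted p under 0.05, nor did limma call any. The one in Hsp90ab1, a cytosolic chaperone, spans 37 bp (chr17:45571482-45571518) and had a PSI of 0.999 in all 4 libraries from 49207 to 62333 reads. That in Pa2g4 (24 bp) was at 0.999 to 1.00, and that in 1700021K19Rik (42 bp) at 0.992 to 1.00. The entry of 33 bp in Myo9b, an unconventional myosin, stayed between 0.492 and 0.519, and the entry of 11 bp in H2-T10, a class I histocompatibility gene, between 0.755 and 0.865 from 30 to 110 reads. At the other end of the range, 1 of the 4 introns of exactly 200 bp was called higher, in Rnpepl1 (0.0472 and 0.0316 against 0.269 and 0.322), and those of Trmt1, Btbd9 and Tecpr1 were not. Just outside the limit, 201 bp introns of Srsf5 and Cxcl16 had PSI differences of 0.0813 and 0.182.

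The starting level went with the share called. It was 31.5% higher among the 336 introns with a DMSO PSI up to 0.05, 50.8% of 128 from 0.05 to 0.1, 58.1% of 136 from 0.1 to 0.3, 44.0% of 50 from 0.3 to 0.6 and 25 of 50 from 0.6 to 0.9. Introns of a length divisible by 3 were called higher in 33.5% of 269, and introns with a remainder of 1 or 2 in 39.0% of 246 and 41.1% of 270. Introns in the first 0.33 of the gene's length were called higher in 32.7% of 171, those up to 0.67 in 41.0% of 244 and those beyond in 38.7% of 362. These shares are descriptions, with no test.

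Introns of the genes that run splicing itself were called in some cases and not in others. Of 10 introns of spliceosome components, 3 were higher (against 35.1% of all introns tested), none lower and 7 not called, a share near the background. Rbm5, a regulator of 3′ splice site choice, had an 84 bp intron (chr9:107751792-107751875, minus strand) that rose from 0.00745 and 0.00498 to 0.661 and 0.520, while total reads went from 3115 and 2845 to 125 and 156. U2af1l4, a relative of the small U2AF subunit that reads the 3′ splice site, had 5 short introns. Of these the 132 bp (0.150 and 0.110 against 0.389 and 0.479) and 172 bp (0.174 and 0.145 against 0.298 and 0.298) introns rose. The 132 bp intron overlaps Psenen in RefSeq. The intron of Luc7l3, a U1 snRNP partner, stood at 0.700 and 0.680 against 0.601 and 0.653 and did not pass. No short intron of the SF3A or SF3B genes met the rule, and there was none in the lists of SR proteins and of nonsense-mediated decay factors.

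Both short introns of SR protein kinases were called higher, in a list of only 2 introns (background 35.1%). The 87 bp intron of Clk1 (chr1:58417180-58417266, minus strand) went from 0.0735 and 0.0546 to 0.777 and 0.831, and the 191 bp intron of Clk4 (chr11:51275579-51275769) from 0.0788 and 0.0735 to 0.597 and 0.405. Among 8 introns of hnRNP genes 3 were higher, again near the background of 35.1%, and none lower. The largest change was in Hnrnph1, which binds G-rich RNA (197 bp, chr11:50379624-50379820), from 0.182 and 0.182 to 0.347 and 0.451. The deeply covered intron of Hnrnpk (78 bp, 12872 to 19019 reads) went from 0.0116 and 0.0105 to 0.0649 and 0.0898, which passed the adjusted p (7.19e-07) but not the size limit.

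All 4 introns in genes of the Ddx and Dhx helicase families were called higher (background 35.1%), with a median difference of 0.244. RNA helicases with other names were not in this list, and of these the 3 short introns of Skiv2l, between −0.0144 and 0.0183, were not called. In Ddx51 (chr5:110655414-110655564) PSI went from 0.0361 and 0.0141 to 0.418 and 0.694, and in Ddx27 (84 bp) from 0.0119 and 0.00913 to 0.147 and 0.236. Both introns of Dhx30, which acts on mitochondrial RNA, rose as well, that of 71 bp from 0.0805 and 0.0781 to 0.431 and 0.342. All 3 introns of cyclin and CDK genes were called higher too (background 35.1%). Ccng2, a cyclin of stressed and resting cells, went from 0.0241 and 0.0259 to 0.740 and 0.823 (156 bp, chr5:93271045-93271200), and Cdk11b from 0.592 and 0.610 to 0.828 and 0.786.

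Zinc finger genes with numbered Zfp or Zbtb names, mostly DNA-binding transcription factors, had 12 of 13 short introns called higher. The share over all introns tested was 35.1%, and the median difference was 0.369 against 0.0371. No test of this share was made. Zinc finger hosts with other names, such as Znf512b, were not in this list. The 102 bp intron of Zfp131 (chr13:119775990-119776091) went from 0.328 and 0.318 to 0.804 and 0.857. All 3 introns of Zfp687 rose, that of 105 bp from 0.0267 and 0.0397 to 0.278 and 0.287. The 193 bp intron of Zfp384, which overlaps the noncoding gene 4930557K07Rik in RefSeq, rose from 0.0359 and 0.0307 to 0.191 and 0.285. The 143 bp intron of Zfp384 had 0.738 and 0.512 against 0.80 and 0.862 and did not pass. Total reads of the 93 bp intron of Zfp644 dropped from 1024 and 1096 to 74 and 135, with PSI of 0.755 and 0.729 against 0.957 and 0.988. The list is small and comes from 8 genes, so its introns are not independent.

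Chromatin regulators had 7 of 14 introns higher and none lower, against 35.1% and 2.89% of all introns tested. The list was set by gene names and did not hold Cbx8 and Pcgf1, described above. Brd2, a reader of acetylated histones, had a 172 bp intron (chr17:34114178-34114349, minus strand) with 0.00879 and 0.0107 after DMSO and 0.612 and 0.593 after treatment, from 2478 to 3637 reads (difference 0.593 ± 0.0141 SE, adjusted p = 2.57e-11). Its TPM was 122 and 114 against 124 and 154. Chd4 (84 bp) had 0.0739 and 0.0680 against 0.142 and 0.139, below the size limit, while introns of Sirt2 and Ehmt2, which remove acetyl groups and methylate histone H3, stayed at or below 0.018 in every library. The 103 bp intron of H3f3b, a replication-independent histone H3.3 gene (chr11:116023779-116023881), rose from 0.0164 and 0.0137 to 0.290 and 0.310.

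Cytoplasmic ribosomal protein genes had 0 of 14 introns called, against 38.0% of all introns tested, and a median difference of 0.00854. The adjusted p alone passed for 9 of these 14, all upward, 11 had an unadjusted p under 0.05, and limma also called none. In the 81 bp intron of Rps2 (chr17:24720453-24720533) PSI was 0.00243 and 0.00262 after DMSO and 0.00502 and 0.00848 after pladienolide B, from 36930 to 91874 reads. Rpl7 (175 bp) had 0.000515 and 0.000942 against 0.00299 and 0.00444, and the 116 bp intron of Rpl13a 0.00478 and 0.00389 against 0.0112 and 0.0165. In these 3 both treated libraries were above both controls, yet under 0.02. Larger differences in the list were those of Rpl10a (0.385 and 0.375 against 0.447 and 0.487), Rpl31 (0.292 and 0.360 against 0.372 and 0.423) and Rpl7a (0.00692 and 0.00612 against 0.0481 and 0.0734). Of these Rpl10a and Rpl7a passed the adjusted p and stayed under the size limit, and these 3 were picked after their values were seen. Reads of these introns were more numerous in the treated libraries, as 81314 and 91874 against 36930 and 44264 for Rps2 show.

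The 6 introns with the most reads among those that moved by under 0.05 were named for their small change, and some of them are given here. Both short introns of Eef1a1, the elongation factor that brings tRNA to the ribosome, stayed at or below 0.0116 from 113574 to 283652 reads. That of 85 bp, with 0.00158 and 0.00573 against 0.00747 and 0.0116, still passed the adjusted p (0.042 in the quasi-binomial test). The Eef1a1 intron of 89 bp did not (0.192). The intron of Ppia, cyclophilin A, was at 0.00412 and 0.00600 against 0.00538 and 0.00540. The entries in Actb (150 bp) and Bsg (115 bp) were retained in nearly all reads in every library, with PSI of at least 0.999.

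Translation factors and aminoacyl-tRNA synthetases had 6 of 20 introns higher, near the background of 35.1%, and none lower. Eif6, which keeps the ribosomal subunits apart, had the largest change in this list, at an intron of 116 bp (chr2:155826211-155826326, 0.00603 and 0.00791 against 0.830 and 0.842). Eef1g stayed at or below 0.00849. In Eif4a2, an RNA helicase of initiation, an 80 bp intron rose from 0.0612 and 0.0622 to 0.232 and 0.276, while one of 85 bp went from 0.0261 and 0.0276 to 0.0984 and 0.122 and stayed under the size limit. Respiratory chain genes had 0 of 3 introns called (2 at an unadjusted p under 0.05 and 0 in limma). They ran from Ndufb10 (0.0315 and 0.0285 against 0.112 and 0.144) to Uqcrq, which kept most reads unspliced in all libraries (0.863 to 0.879). The Uqcrq intron overlaps Gdf9 in RefSeq. The mitochondrial ribosome had 3 of 6 higher (background 35.1%), with Mrps26 (80 bp) going from 0.0956 and 0.114 to 0.740 and 0.780.

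RNA polymerase and transcription factor complexes had 3 of 12 introns higher and 1 lower, Gtf2a2, and the shares in this paragraph are to be read against 35.1% higher and 2.89% lower over all introns tested. Both introns of Polr2e, a subunit shared by the nuclear RNA polymerases, rose, that of 165 bp from 0.0118 and 0.0150 to 0.225 and 0.297. Ubiquitin and proteasome genes, in a list set by gene names that did not hold Syvn1, had 7 of 19 higher and none lower. Proteasome subunits differed among themselves. The 144 bp intron of Psmd4, picked after its values were seen, rose from 0.0179 and 0.00958 to 0.149 and 0.170, while Psma3 had 0.0257 and 0.0218 against 0.00430 and 0.00569. DNA replication and repair genes had 5 of 12 higher and 1 lower, Fanci (0.166 and 0.153 against 0.0627 and 0.0443). The 161 bp intron of Parp3 rose from 0.150 and 0.141 to 0.388 and 0.430, and that of Mcm7, a subunit of the replicative helicase, was at 0.0323 and 0.0303 against 0.0214 and 0.0250. Matrix and cytoskeleton genes had 2 of 7 higher, and Rab and vesicle traffic genes 4 of 11, among them both introns of the sorting nexin Snx17 (0.0159 and 0.0117 against 0.152 and 0.193 at 94 bp). The single intron of the p53 and Bcl2 family, in Bcl2l11 (168 bp), had 0.773 and 0.727 against 0.848 and 0.782 and was not called (unadjusted p above 0.05, and not called in limma).

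Introns of the same gene moved together in some genes and not in others. Of 133 genes with 2 or more short introns (325 introns), 40 had every one called higher. In 34 some were higher, and in 55 none was called. Over all introns tested, 35.1% were called higher and 2.89% lower. In 0 genes were introns called in both directions, but few could be. Only Gas5, Dmpk, Oplah and Tmem208 among them held an intron called lower. The median spread within a gene was 0.0685, with no spread between genes beside it. In 20 genes one intron was called higher while another moved by less than 0.05. Some of the 133 genes count entries that share a splice site, such as Eif2b2 and Mettl17, so their calls are not independent. All 4 short entries of Ctu2, which thiolates tRNA, rose by 0.299 to 0.667, and 5 of 6 in Rhot2, a mitochondrial GTPase, by 0.157 to 0.329. In both genes 2 of the entries share a splice site. In Ptbp1, a splicing repressor, introns of 127 and 79 bp rose from 0.00775 and 0.00964 to 0.120 and 0.153 and from 0.0136 and 0.0163 to 0.163 and 0.186. The other 2 entries of Ptbp1 overlap each other, and had a PSI of at least 0.981 in every library.

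Some of the widest differences lay between entries that share a splice site. In all, 88 of the 785 introns overlap another member, and 36 of these were called higher. That share was near the 37.8% of all short introns. In Tnfaip2 the 169 bp intron described above rose by 0.890, while the entry of 118 bp with the same upstream border (chr12:111448370-111448487) was at 1.00 and 1.00 against 0.980 and 0.987. The 100 bp intron of Nr1h2 (chr7:44553709-44553808), the liver X receptor beta gene, rose from 0.0353 and 0.0250 to 0.519 and 0.482, and the alternative of 96 bp was at 0.971 and 0.961 against 1.00 and 1.00. In Nxf1, the mRNA export receptor, a 79 bp intron rose from 0.0216 and 0.0205 to 0.421 and 0.427, and the overlapping entry of 133 bp had at least 0.990 throughout. These 3 genes were picked after their values were seen.

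**Figure D5:**
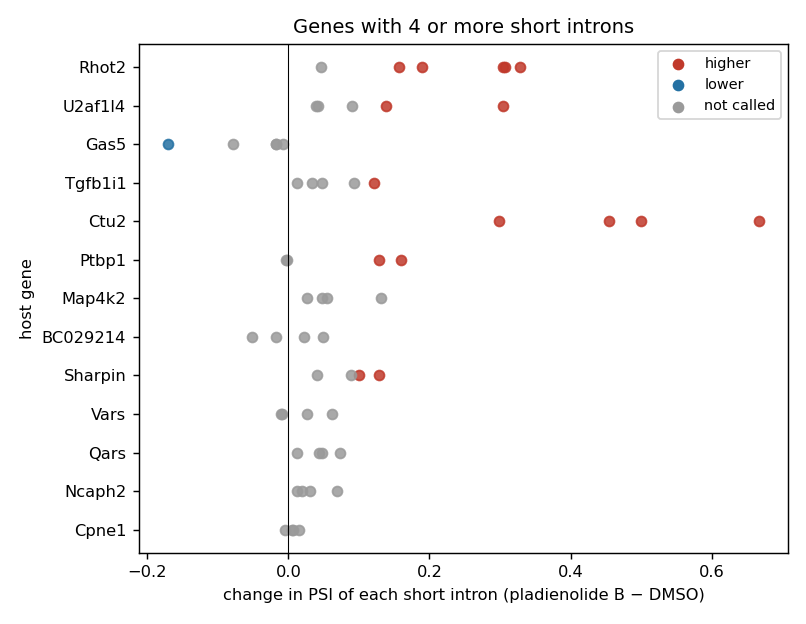
Change in PSI of each short intron (x axis, pladienolide B minus DMSO) in the 13 genes with 4 or more of them (y axis), coloured by call. All 4 entries of Ctu2, some of which overlap, lie at 0.299 or more, and the 5 of Gas5 lie below 0. Vars, Qars, Ncaph2, Cpne1, Map4k2 and BC029214 have none called.

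In 166 genes with both a short and a longer intron in the table, the median change in PSI was 0.0908 for the short and 0.0470 for the longer introns. The short ones lay above the longer ones in most of these genes and below them in 65. The median difference, short minus longer, was 0.0287, with no test, since genes share libraries. Introns with a DMSO PSI above 0.9 have little room to rise. Over all genes, introns with a DMSO PSI of 0.9 or less had median changes of 0.0706 (700 short) and 0.0615 (820 longer).

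The skipped exon table gave the other outcome at the same introns. Of its 54535 events tested, 641 (537 exons) had an exon bounded by one of 416 short introns. Inclusion fell in 41 of these (6.4%, against 7.13% of all events tested) and rose in 0 in the quasi-binomial test (against 0.106%), with 1 event higher by 0.1 or more at an unadjusted p under 0.05. Beside introns called higher, 34 of 239 events (14.2%) had lower inclusion, beside introns not called 7 of 388 (1.80%), and beside introns called lower 0 of 14. Events share exons and junction reads with the introns, and the difference in share was not tested.

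The exon of 44 bp in Kin (chr2:10090113-10090156) had the largest fall, from inclusion levels of 0.979 and 0.983 to 0.137 and 0.0740, next to an intron whose PSI rose by 0.670. A second event of this exon with other flanking exons fell less, from 0.975 and 0.975 to 0.608 and 0.551. In Clk1 the 167 bp exon (chr1:58417013-58417179) beside the retained intron went from 0.998 and 1.00 to 0.214 and 0.202 in 1 event and from 0.983 and 0.982 to 0.495 and 0.429 in another. In Rnf167 the 106 bp exon (chr11:70649912-70650017), with a retained intron on either side, went from 1.00 and 1.00 to 0.416 and 0.398 in the event with the largest fall. Inclusion of the exon beside the Brd2 intron fell less, from 0.997 and 0.996 to 0.860 and 0.848, and that beside the Eif6 intron had 1.00 and 0.999 against 0.924 and 0.837. The PSI of these introns rose by more, 0.593 and 0.829.

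Host gene levels were compared in TPM, on a log2(TPM + 0.1) scale with limma. TPM gives shares of the RNA in a library, so fewer transcripts per cell and a smaller share cannot be told apart. Over all 13221 genes tested the median log2 change was −1.13, with 9664 genes (73.1%) lower and 2094 (15.8%) higher. Of the 593 host genes 585 were tested, with a median of −0.99, 448 lower and 79 higher. When each library was centred on its median, 341 host genes were higher and 162 lower, so the direction of single hosts depends on the scaling, and changes relative to the median gene are given beside the uncentred ones. Hosts with an intron called higher had a median of −1.31, which is −0.18 relative to all genes, and hosts with no call −0.86 (0.27 relative to all genes). The 17 hosts of introns called lower had −0.62 (0.52 relative). Spearman's rho between host change and PSI difference was −0.205 across 777 introns, which share libraries and junction reads.

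High retention was seen at very different host levels. Rnf167 rose on this scale from 18.5 and 18.6 to 41.1 and 52.7 TPM (log2 change 1.32 ± 0.124 SE, adjusted p = 0.000284 in limma, and 2.46 relative to the median gene). Uck1 had 38.5 and 35.5 against 53.5 and 55.8 TPM (log2 change 0.56, and 1.69 relative). At the other extreme Gba2 had 8.15 and 7.71 against 1.41 and 1.26 TPM (log2 change −2.49, and −1.35 relative) and Rbm5 39.2 and 37.2 against 5.4 and 6.12 TPM (−2.71, and −1.58 relative). Of the 83 hosts with an intron that rose by 0.5 or more, 20 were higher and 57 lower in TPM without centring, and the median of −0.91 was 0.22 above that of all genes.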

How the data were processed

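RNA-seq of 4 fibroblast libraries was used. The authors aligned reads with HISAT2 2.0.1 to mm10 and to a SPRET/EiJ genome, and ran rMATS with its default settings on Ensembl gene models. The authors deposited a whole-number count of junction reads per form, not normalized, with both libraries of a group in 1 list, and form lengths as a score written by rMATS (149 for the spliced form, up to 298 for the retained one). Gene levels were deposited as TPM, from featureCounts runs by the authors. Columns of the authors' own tests (p-values, inclusion differences) were not used. Which list held which treatment was checked against allelic tables: allelic reads were contained in the total of the matching treatment in 100.0% of 30891 and 45298 events.

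PSI was computed from counts over form lengths. Counts were fitted with a quasi-binomial logistic model, dispersions of at least 1 moderated with limma 3.58.1 (R 4.3.3) toward a depth-dependent prior, and p-values adjusted by Benjamini-Hochberg over all 1802 introns or 54535 skipped exons. TPM was tested with limma on log2(TPM + 0.1) for genes with a mean of at least 1. On simulated introns with 200 changed, 62% of logit shifts of 1.5 and 100% of shifts of 3.0 were recovered, with 1.818% false calls. Skipped exons gave 62% and 99% with 0.0% false, and TPM 90% of log2 changes of 1 with 7.692% false. For introns and exons the simulated spread was that of the fitted prior, which the test itself assumes. False calls may therefore be more frequent in the real data. The lists were split into counts per library for these fits, and edgeR was not used. Other software was Python 3.11.15, numpy 2.4.6, scipy 1.17.1 and pandas 2.3.3.

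The introns and 20 gene lists were chosen with earlier results of these data known. The lists matched gene symbols, so genes of a class with other names were not counted in it. Introns named were the 15 largest rises and 10 largest falls with no overlap between groups (1 per gene), the 4 deepest of each list, the 5 shortest, the 6 deepest that moved by under 0.05, those nearest the 200 bp limit, and any in SF3A or SF3B genes. Other list members, genes with several introns and exon examples were named after their values were seen. Second genes came from RefSeq on GRCm38.p6, the assembly of mm10, where 777 introns matched by host gene. Sequences were not used. Alternatives were other read minimums, another prior, PSI without form lengths, a PSI limit of 0.2, leaving out each library, thinning to 20 reads, and other TPM settings. Intervals of counts are not given, and SE values cover the spread between libraries.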

Additional observations from a re-analysis of the deposited data

How the results depend on the processing

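The number of short introns called higher lay between 209 (a PSI limit of 0.2) and 323 (no read minimum) under the alternatives run. With reads thinned to 20 per library it was 239. Of 1307 comparisons of 95 named introns, 40 lost a call, 5 gained a call and none reversed a call. The sign of small changes in introns not called could differ with a library left out, as for Ap1m1 and Sirt2. The largest rises and falls were named for not overlapping between groups, so leaving out a library could not reverse them. Calls of lower retention were fewer at a PSI limit of 0.2 (7) and in limma on log2 ratios of the forms (9), an alternative chosen after seeing the data, as were thinning and leaving out introns. Leaving out each library gave 286 to 321 calls, 270 to 309 higher and 12 to 16 lower. The lone library of a group was then assumed to vary like the others. The difference in median PSI was 0.131 at a minimum of 50 reads, 0.231 without form lengths, and 0.150 to 0.186 with a library left out. Lower exon inclusion beside short introns was called in 31 events at 50 reads and in 34 to 47 with a library left out. Host gene calls split into 341 higher and 162 lower after centring and into 267 and 260 at the median change of all genes. No paired analysis was possible because the count lists carry no replicate numbers. For TPM, whose columns do, deviations of same-numbered libraries correlated at −0.0159 over 13221 genes, and a replicate block gave 518 host gene calls (73 higher, 445 lower). The count models of edgeR and DESeq2 were planned and not run. An intron with a DMSO PSI under 0.1 cannot be called lower at the size limit used. Treated values rest on fewer reads (267 and 337 at the median intron) than controls (631 and 640).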
